A study of Mus musculus with 2 samples.

Results

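The genes described here are 10 secreted antagonists of Wnt signalling, Sfrp1, Sfrp2, Sfrp4, Sfrp5, Frzb, Dkk1, Dkk2, Dkk3, Wif1 and Notum, taken by symbol from the 28001 features of the count matrices, where each had 1 row. Their transcripts were counted in single cells of the regenerating digit tip of adult mice. The Lmx1b library came from Lmx1bCreERT2;R26-LSL-TdT mice and the Pdgfra library from PdgfraCreERT;R26-LSL-TdT mice, 1 library per line, so that the lines have no replicate and no difference was tested. All mice were 10 to 12 weeks old, received tamoxifen at 3 mg per day on 4 days, lost the digit tip by amputation 10 days later and gave the regrown tissue at day 14. In both lines tamoxifen lets a Cre recombinase, driven by regulatory sequence of Lmx1b or Pdgfra, excise a stop cassette at Rosa26, so that tdTomato marks the cells that used the driver at that time and their descendants, and misses cells that did not recombine. Whether digits or animals were pooled is not given in the sources used here, and no sort on tdTomato was described.

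Wnt ligands are secreted, lipid-modified proteins that bring Frizzled receptors and the co-receptors Lrp5 and Lrp6 together, which stabilises beta-catenin. The antagonists act outside the cell by different routes. The secreted frizzled-related proteins Sfrp1, Sfrp2, Sfrp4, Sfrp5 and Frzb (also called sFRP3) carry a Frizzled-like cysteine-rich domain and bind Wnts, and Wif1, the Wnt inhibitory factor, binds Wnts through another domain. Dkk1 and Dkk2 of the Dickkopf family bind Lrp5 and Lrp6, whereas Dkk3 is a divergent member that does not act through these co-receptors in the same way. Notum is an enzyme that removes the lipid from Wnts. In the digit tip, Wnt signalling of the nail organ is known to be needed for regrowth after amputation, and in bone Dkk1 is a well-known brake on osteoblasts.

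The start regions of the genes whose levels set single cell populations apart below are shown because they place those genes on the genome and let their sequence be read beside their levels. Each holds 250 bases before and 50 bases after the annotated start, from RefSeq in build GRCm38.p6, which gave such a region for 6 of the 10 genes and none for Sfrp1, Sfrp4, Dkk3 and Notum. In the GENCODE annotation of GRCm38 those 4 genes span chr8:23411502-23449632 (plus strand), chr13:19623104-19632994 (plus), chr7:112116017-112159057 (minus) and chr11:120653788-120661175 (minus). Both strands were searched for the TCF/LEF core, which is CTTTG followed by A or T at each of the next 2 bases, for TATAAA and for TAATTA, and matches may overlap. These were found in 16.9%, 13.6% and 5.29% of all 32851 regions of this length. Capitals mark the matches. Sfrp2 lies at chr3:83766071-83766370 on the plus strand, Dkk2 at chr3:132085042-132085341 on the plus strand, Dkk1 at chr19:30549447-30549746 on the minus strand and Wif1 at chr10:121033754-121034053 on the plus strand.
Sfrp2: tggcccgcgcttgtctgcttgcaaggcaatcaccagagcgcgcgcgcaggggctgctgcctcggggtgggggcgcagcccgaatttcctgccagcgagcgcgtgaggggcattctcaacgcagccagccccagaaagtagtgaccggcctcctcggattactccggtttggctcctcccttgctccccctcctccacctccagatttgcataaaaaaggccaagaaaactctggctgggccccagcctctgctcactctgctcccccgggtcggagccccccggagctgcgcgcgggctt
Dkk2: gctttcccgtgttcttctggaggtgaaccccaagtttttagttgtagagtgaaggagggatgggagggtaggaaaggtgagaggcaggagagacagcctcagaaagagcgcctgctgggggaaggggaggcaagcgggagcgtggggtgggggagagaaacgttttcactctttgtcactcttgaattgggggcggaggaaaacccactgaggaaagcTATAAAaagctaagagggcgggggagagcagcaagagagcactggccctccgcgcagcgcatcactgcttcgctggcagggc
Dkk1: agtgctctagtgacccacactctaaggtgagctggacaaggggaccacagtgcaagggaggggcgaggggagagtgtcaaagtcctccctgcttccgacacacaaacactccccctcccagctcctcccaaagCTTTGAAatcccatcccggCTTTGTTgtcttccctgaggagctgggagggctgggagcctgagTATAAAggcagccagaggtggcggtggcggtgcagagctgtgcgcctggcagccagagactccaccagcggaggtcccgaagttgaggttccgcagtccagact
Wif1: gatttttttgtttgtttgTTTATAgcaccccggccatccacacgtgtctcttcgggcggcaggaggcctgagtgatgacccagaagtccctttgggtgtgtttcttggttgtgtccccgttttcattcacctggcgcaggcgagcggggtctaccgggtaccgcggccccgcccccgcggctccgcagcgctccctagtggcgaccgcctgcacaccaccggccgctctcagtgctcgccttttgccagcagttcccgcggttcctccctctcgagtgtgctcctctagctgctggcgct
The Dkk1 region held 2 TCF/LEF core matches, 117 and 98 bases before the start, and TATAAA 54 bases before it. The Dkk2 region held TATAAA 32 bases before the start. The Wif1 region held TATAAA on the reverse strand, 232 bases before the start, seen as its complement. None of the searched letters occurred in the Sfrp2 region, nor in those of Frzb and Sfrp5, which are not printed. GC content was 66% for Sfrp2, 57.7% for Dkk2, 60.7% for Dkk1 and 63% for Wif1, against a median of 52.7% over all regions. A match to these letters is a description of the sequence and says nothing of binding.

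The Lmx1b library held 5991 barcodes and 66867027 unique molecular identifiers (UMIs), those of the Pdgfra library being 5032 and 49084751, with 10 barcodes in common. After filters on genes, mitochondrial UMIs and likely doublets, 2747 and 2308 cells were left, of which 561 and 944 had under 5000 UMIs and were not classified. Marker genes placed 1950 and 1165 cells in a class, and 236 and 199 in none. There were 804 and 453 mesenchymal cells, 41.2% and 38.9% of the classified cells, at median depths of 27286.5 and 26548 UMIs. All 12 fibroblast markers were at least 2-fold higher in them than in the other classified cells in both libraries, as were 9 and 8 of 10 bone-lineage markers. In the Lmx1b library 26 of 804 mesenchymal cells carried 2 or more UMIs of Xist, the RNA that coats the inactive X chromosome, and 14 of them lay in the subtype led by Cyp2f2 and Epha5 described below. In the Pdgfra library 0 of 453 did.

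Most of the antagonists were higher in mesenchymal cells than in the rest of the digit tip. UMIs were summed over the cells of a group and given as counts per 1000000 UMIs (CPM), with 95% exact Poisson intervals in brackets. Like all other intervals here, these cover counting error only, not how cells or animals vary. A gene was measured in a comparison when its mean over both sides was at least 5 CPM, and called at a 2-fold difference. Of the 9 measured members, 7 were at least 2-fold higher in mesenchymal cells than in all other classified cells in each library and 0 were 2-fold lower. Of all genes measured in the same comparison, 8.08% were called higher and 14.8% lower in the Lmx1b library, with 8.16% and 15.3% in the Pdgfra library. The median log2 difference of the measured members was 1.80 in the Lmx1b library, with 1.53 in the Pdgfra library, beside -0.21 and -0.22 over all measured genes. The count in the Lmx1b library was 4 in place of 7 when cells were held to 1000 genes or more and 5% mitochondrial UMIs or less, and 4 when classes were taken from clusters.

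Sfrp2 stood 94.7-fold (79.5 to 114) higher in mesenchymal cells of the Lmx1b library, at 499 CPM (490.5 to 508), and 87.6-fold (74.2 to 104) higher in those of the Pdgfra library, at 878 CPM (862 to 894). In the other 7 classes plotted it did not pass 14.9 CPM. Sfrp4 reached 111 CPM (107 to 115) and 20.8 CPM (18.4 to 23.4) in mesenchymal cells, 30.02-fold (24.3 to 37.5) and 12.7-fold (8.31 to 20.4) above the other cells. Its mesenchymal level thus differed several-fold between the libraries, which also differed in the make-up of their mesenchyme. Dkk3 was the most evenly spread member within the mesenchyme. It had 323 CPM (316 to 331) and 279 CPM (270.0 to 288) there, 10.6-fold (9.81 to 11.4) and 9.55-fold (8.62 to 10.6) above the other cells. Wif1 had 362 CPM (354 to 369.7) and 266 CPM (257 to 275) in mesenchymal cells, 3.51-fold (3.36 to 3.67) and 2.91-fold (2.73 to 3.1) above the rest. Notum was a low gene, at 14.4 CPM (12.9 to 16) and 7.77 CPM (6.35 to 9.4), which is 3.42-fold (2.73 to 4.32) and 3.21-fold (2.17 to 4.88) above the rest. Sfrp1 had 89.1 CPM and 153 CPM in mesenchymal cells, against 10.6 CPM and 33.4 CPM in the others, 8.42-fold (7.39 to 9.62) and 4.59-fold (4.15 to 5.09) higher. The Dickkopf genes Dkk1 and Dkk2 passed 2-fold in 1 library each. Dkk1 was 3.0-fold (2.59 to 3.47) and 1.54-fold (1.27 to 1.88) higher in mesenchymal cells, past 2-fold in the Lmx1b library, with Dkk2 was at 0.973 (0.894 to 1.06) and 2.94 (2.67 to 3.25) times the level of the others, past 2-fold in the Pdgfra library. Frzb passed it in neither library, with ratios of 0.929 (0.865 to 0.998) and 0.931 (0.822 to 1.05). These values moved with the processing. Averaging CPM over cells gave Frzb log2 ratios of 0.63 and 0.68, and the stricter cell filter gave -1.21 in the Lmx1b library. For Dkk1 in the Pdgfra library the log2 ratio was 1.48 with CPM averaged over cells, past 2-fold, and -0.10 with classes from clusters, and that of Dkk2 in the Lmx1b library lay between -0.05 and 0.51. With the stricter cell filter the log2 ratio of Notum in the Pdgfra library was -0.37.

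Shares of cells with at least 1 UMI depend on depth, so every cell was also thinned at random to 5000 UMIs. Dkk3 was then found in 66.5% (63.2 to 69.8%) of mesenchymal cells of the Lmx1b library and 62.9% (58.3 to 67.4%) of those of the Pdgfra library, and unthinned in 91% and 90.9%. In macrophages and monocytes, which should lack these genes, the thinned share of Dkk3 was 0% and 2.94%, the unthinned one 4.76% and 8.82%, at median depths of 26842 and 21422 UMIs. Wif1 was found in 47.5% and 40.6% of thinned mesenchymal cells, against 2.86% and 4.9% of macrophages. Sfrp1 was found in 26% and 40.0%, against 0.952% and 1.96%. Both genes were thus found in mesenchymal cells far more often than in macrophages at equal depth. Sfrp2, the member with the steepest class difference, was found in 17.3% (14.7 to 20.1%) and 37.3% (32.8 to 41.9%) of thinned mesenchymal cells, against 0.952% and 5.88% of macrophages. Frzb was found in 19.8% and 12.4%, Sfrp4 in 15.5% and 5.96%, Dkk2 in 11.4% and 20.8%, Dkk1 in 6.84% and 2.65%, and Notum in 4.85% and 3.75%. In macrophages none of these 5 genes was found in more than 2.86% and 1.96% of thinned cells. A thinned mesenchymal cell held a median of 2 of the 10 members in both libraries, and 37.1% and 38.0% of these cells held 3 or more. Endothelial cells and macrophages held a median of 0.

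**Figure D1:**
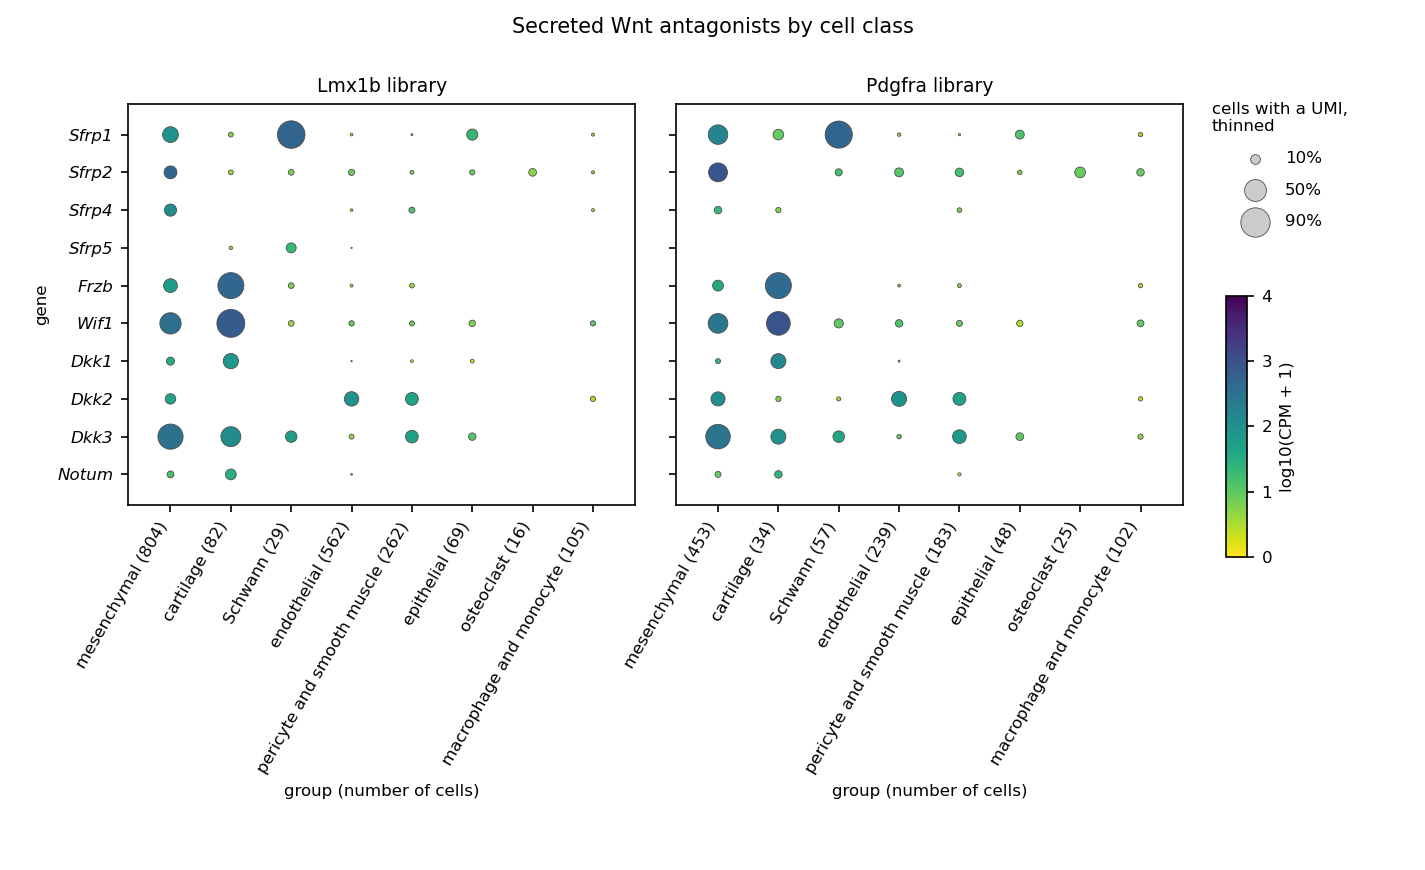
Level and detection of the 10 genes in 8 cell classes, Lmx1b library left and Pdgfra library right, with the number of cells beside each class. Colour gives log10(CPM + 1) of the summed UMIs and the area of a dot the share of cells with a UMI after thinning to 5000 UMIs, with no dot at 0. The mesenchymal column is filled for 9 genes in both libraries, cartilage has the largest dots of Frzb, Schwann cells those of Sfrp1, and the Sfrp5 row is nearly empty.

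In the plot of the members by cell class, cartilage cells, Schwann cells and blood vessels held different antagonists. Cartilage cells, 82 (Lmx1b library) and 34 (Pdgfra library), were the richest in Frzb, which was first found in cartilage. Beside the cartilage markers, summed to a median of 35305 and 33993 CPM per cell, these cells carried bone-lineage markers, at 60635 and 54457 CPM per cell, against 2284 and 1340.2 CPM in mesenchymal cells, with 3 and 5 of 10 at least 2-fold higher than in the other classified cells. The part of these bone markers in the levels below was not tested. Frzb had 477 CPM (453 to 501) and 410.5 CPM (375 to 448) there, 7.64-fold (7.11 to 8.2) and 11.5-fold (10.1 to 13) above mesenchymal cells, and was found in 70.7% and 70.6% of thinned cells. Wif1 had 707 CPM (679 to 736) and 961 CPM (906 to 1017) in cartilage cells, 1.95-fold (1.87 to 2.05) and 3.61-fold (3.38 to 3.86) above mesenchymal cells. Dkk1 had 69.7 CPM (61 to 79.3) and 139 CPM (119 to 161) there, 2.23-fold (1.92 to 2.59) and 7.11-fold (5.82 to 8.65) above mesenchymal cells. Frzb, Dkk1, Wif1 and Notum thus all lay higher in cartilage cells in both libraries, though Wif1 and Notum did not pass 2-fold in the Lmx1b library. Notum had 28.2 CPM (22.7 to 34.5) and 24.5 CPM (16.5 to 34.9) in cartilage cells, on 93 and 30 UMIs. Sfrp1, Sfrp2 and Sfrp4 ran the other way. Sfrp2 had 2.73 CPM (1.247 to 5.18) and 5.71 CPM (2.3 to 11.8) in cartilage cells, Sfrp1 4.24 CPM (2.32 to 7.12) and 8.16 CPM (3.91 to 15), and Sfrp4 1.51 CPM (0.492 to 3.53) and 4.9 CPM (1.8 to 10.7). Of the 9 members measured between cartilage and mesenchymal cells, 2 were 2-fold higher and 5 lower in the Lmx1b library, with 4 higher and 5 lower in the Pdgfra library. Over all measured genes 4.83% were higher and 24.4% lower in the Lmx1b library, with 6.18% and 25.8% in the Pdgfra library. Cartilage cells were deeper than mesenchymal cells, at medians of 44208.5 and 39064.5 UMIs.

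Schwann cells, the glia that wrap peripheral nerve fibres, were few, 29 (Lmx1b library) and 57 (Pdgfra library), and carried Sfrp1 above the mesenchyme. Sfrp1 had 514 CPM (442 to 595) and 515 CPM (467 to 567) in them, nearly the same value in each library, against 89.1 CPM (85.4 to 93) and 153 CPM (147 to 160.1) in mesenchymal cells. That is 5.77-fold (4.93 to 6.72) and 3.36-fold (3.02 to 3.73) higher. It was found in 79.3% (60.3 to 92%) and 77.2% (64.2 to 87.3%) of thinned Schwann cells, although their median depth was only 8525 and 11453 UMIs. Dkk3 was the other member with a clear level in Schwann cells, at 57.1 CPM (34.9 to 88.2) and 42.1 CPM (29.1 to 58.8), which is 0.177 (0.108 to 0.273) and 0.151 (0.104 to 0.211) times the mesenchymal level. Sfrp5 had 7 UMIs in the 29 Schwann cells of the Lmx1b library, 20.0 CPM (8.04 to 41.2), and by 0 UMIs in the 57 Schwann cells of the Pdgfra library. With a floor of 3 UMIs, a count of 0 allows up to 3.71 CPM there.

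Blood vessels carried Dkk2. Endothelial cells, 562 (Lmx1b library) and 239 (Pdgfra library), had 87.9 CPM (82.2 to 94) and 90.4 CPM (81.5 to 100.01) of it, and pericytes and smooth muscle cells, 262 and 183, had 45.6 CPM (39.8 to 51.9) and 51.7 CPM (43.8 to 60.7). The vascular levels were close in both libraries, and the mesenchymal level was not, at 44.6 CPM (42 to 47.4) and 113 CPM (108 to 119). Endothelial Dkk2 was 1.97 (1.8 to 2.16) times the mesenchymal level in the Lmx1b library but 0.798 (0.711 to 0.894) times that of the Pdgfra library, and the difference between the libraries was not tested. Thinned, Dkk2 was found in 21.9% and 23.8% of endothelial cells, 17.2% and 17.5% of pericytes and smooth muscle cells and 11.4% and 20.8% of mesenchymal cells, against 2.86% and 1.96% of macrophages. Dkk3 was the other vascular member, in the mural cells. It had 52.3 CPM (46.1 to 59.1) and 66.6 CPM (57.5 to 76.7) in pericytes and smooth muscle cells, against 3.55 CPM (2.47 to 4.93) and 8.87 CPM (6.25 to 12.2) in endothelial cells. Dkk1, which like Dkk2 binds Lrp6, was at 1.62 CPM (0.926 to 2.63) and 1.44 CPM (0.528 to 3.13) in endothelial cells.

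Sfrp5 was hardly present. It had 29 UMIs in 19 of 5991 barcodes of the Lmx1b library and 30 UMIs in 11 of 5032 barcodes of the Pdgfra library, before any filter. In mesenchymal cells it had 1 UMI in 804 cells and 0 UMIs in 453 cells, where a floor of 3 UMIs allows up to 0.222 CPM. Cartilage cells of the Lmx1b library had 10 UMIs in 5 of 82 cells, 3.03 CPM (1.45 to 5.57), while the 34 cartilage cells of the Pdgfra library had 0 UMIs. It was measured in none of the comparisons of mesenchymal cells below.

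Within the mesenchyme the members fell into clearly different places. The 1257 mesenchymal cells of both libraries were clustered on genes that left out the 10 members, tdTomato, Xist and Y-linked genes, which gave 11 subtypes, each called here by 2 of its leading genes. The Cyp2f2/Epha5 subtype (35 cells of the Lmx1b library and 92 of the Pdgfra library) had 9 of 9 markers of nail-associated mesenchyme, Lmx1b, Rspo4, Rspo3, Rspo1, Corin, Msx1, Epha5, Cyp2f2 and Apod, at 2-fold or more and is called nail-associated-like. The Gal/Dmp1 subtype (47 and 14 cells) had 5 of 5 mature osteoblast markers, but the cartilage genes Chad and Col2a1 were also among its leading genes, and the Bglap/Car3 subtype (111 and 21 cells) had 3 of 4 osteoblast precursor markers, but was led by Bglap, which had 24593 CPM and 5200.3 CPM there, against 7222 CPM and 3365 CPM in Gal/Dmp1 cells. Since the leading genes go across these names, both are called bone-lineage subtypes only and keep their gene names. The Lgr5/Thbs4 subtype (62 and 51 cells) had 4 of 6 tendon markers and the Ube2c/Top2a subtype (45 and 20 cells) 6 of 6 markers of cycling cells. The other subtypes keep their gene names: Col26a1/Gldn (47 and 51 cells), Cd74/H2-Aa (120 and 108), C1qtnf3/R3hdml (95 and 46), Angptl7/Pi16 (90 and 22), Mmp13/Aldh1a7 (72 and 21) and A2m/Fmo2 (80 and 7). Genes of antigen presentation lead the Cd74/H2-Aa subtype, which stays unnamed, but Cd74 itself was high there in the Lmx1b library alone, at 291 CPM, against 2.85 CPM in the subtype's cells of the Pdgfra library. Gm26771, whose transcript runs antisense to Sfrp2 and overlaps it, was not left out of the clustering, and whether the counting used strand is not given in the sources used here. It had 377 and 379 CPM in nail-associated-like cells. Clustering with the members included gave 35 and 92 nail-associated-like cells as well.

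**Figure D2:**
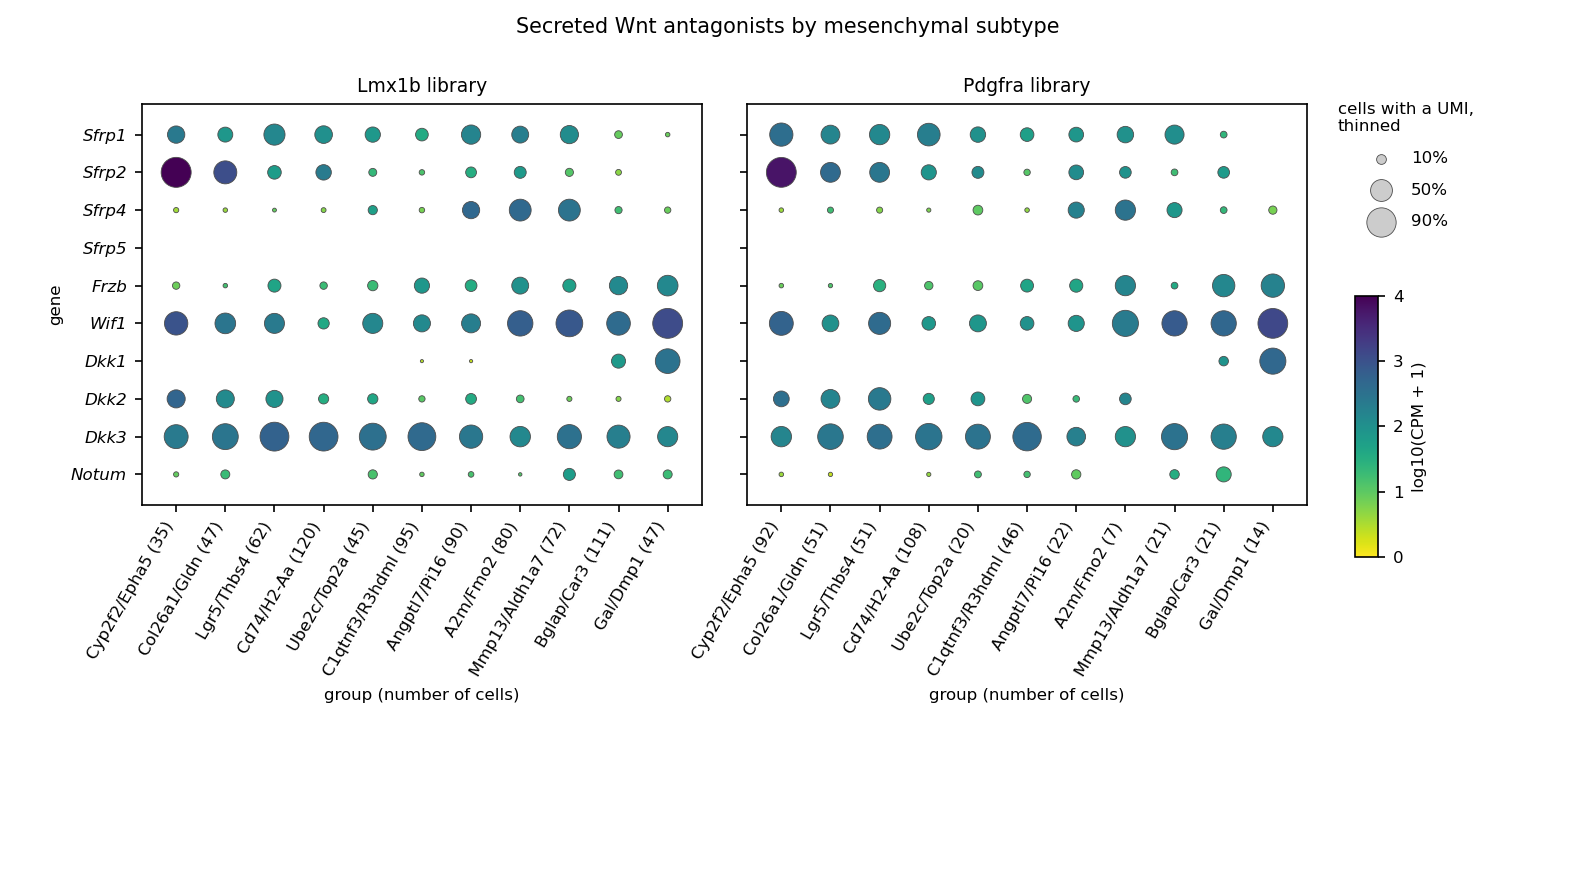
Level and detection of the 10 genes in 11 mesenchymal subtypes, Lmx1b library left and Pdgfra library right, with the number of cells beside each subtype. Colour gives log10(CPM + 1) of the summed UMIs and the area of a dot the share of cells with a UMI after thinning to 5000 UMIs. Sfrp2 is darkest in the Cyp2f2/Epha5 column, Dkk1 has large dots only in the Gal/Dmp1 and Bglap/Car3 columns, and Dkk3 has a large dot in every column.

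In the plot by mesenchymal subtype, the nail-associated-like cells carried most of the Sfrp2. It reached 12605 CPM (12349 to 12865) there in the Lmx1b library, against 116 CPM in all other mesenchymal cells. In the Pdgfra library it reached 6204 CPM (6085 to 6325) there, against 135 CPM in the others. The difference was 109-fold (104 to 114) and 45.9-fold (43.5 to 48.4). These cells held 77.5% of all mesenchymal Sfrp2 UMIs in the Lmx1b library, with 86.5% in the Pdgfra library. In single cells of the Lmx1b library Sfrp2 ran from 69 to 37729 CPM with a median of 8559.5 CPM, and 0 of 35 cells lacked it. In the Pdgfra library the median was 4622 CPM, the highest cell had 26671 CPM, and 6 of 92 cells lacked it. The gene was thus high in nearly every cell of the subtype and not in a few. The next subtype in order was Col26a1/Gldn in both libraries, at 1141 CPM (1082 to 1201) and 427 CPM (394 to 461). It was followed by Cd74/H2-Aa in the Lmx1b library, at 222 CPM (207 to 238), and by Lgr5/Thbs4 in the Pdgfra library, at 264 CPM (239 to 291). The highest single Col26a1/Gldn cell had 11352 CPM (Lmx1b library) and 3488 CPM (Pdgfra library), with medians of 210.2 and 73.1 CPM. The bone lineage had little of it in the Lmx1b library, with 3.91 CPM (1.44 to 8.52) in Gal/Dmp1 cells, which had 0 UMIs in the Pdgfra library, while Bglap/Car3 cells had 3.88 CPM (2.12 to 6.5) and 67.2 CPM (52.2 to 85.2).

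The same subtype was the richest in Dkk2 and Sfrp1 and was the second highest in Wif1 in the Lmx1b library, with the third highest in the Pdgfra library. Dkk2 had 508 CPM (458 to 562) in nail-associated-like cells of the Lmx1b library, against 29.96 CPM in other mesenchymal cells, and 361 CPM (333 to 392) in those of the Pdgfra library, against 78.7 CPM in the others. That is 17-fold (14.9 to 19.3) and 4.59-fold (4.14 to 5.09) higher. Unlike Sfrp2 it was patchy, since 18 of 35 and 61 of 92 cells had no Dkk2 UMI while the highest had 6333 and 5024 CPM. Dkk2 came next in Col26a1/Gldn cells of the Lmx1b library, at 125 CPM (106 to 146), and in Lgr5/Thbs4 cells of the Pdgfra library, at 239 CPM (215 to 264). These subtypes changed places in the other library, with 93.1 CPM (78.8 to 109) in Lgr5/Thbs4 cells and 156 CPM (137 to 178) in Col26a1/Gldn cells. Sfrp1 had 242 CPM in nail-associated-like cells of the Lmx1b library, against 84.3 CPM in other mesenchymal cells, and 367 CPM in those of the Pdgfra library, against 123 CPM in the others. The difference was 2.87-fold (2.44 to 3.35) and 2.98-fold (2.7 to 3.27). In the Lmx1b library its interval in the nail-associated-like cells, 207 to 280.1 CPM, overlapped that of the A2m/Fmo2 cells, 181 to 221 CPM. Wif1 had 937 CPM in nail-associated-like cells of the Lmx1b library, against 344 CPM in other mesenchymal cells, and 551 CPM in those of the Pdgfra library, against 226 CPM in the others. It was 2.73-fold (2.52 to 2.95) and 2.43-fold (2.25 to 2.62) higher. In single cells the median of Wif1 was 322 and 207 CPM, well under the summed level, and the highest cells had 4686 and 3457 CPM. Without the cells that carried Xist its log2 ratio in the Lmx1b library was 0.52, under 2-fold, and with the stricter cell filter that in the Pdgfra library was -0.93, on 17 nail-associated-like cells.

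Other members were low in the nail-associated-like cells. Sfrp4 had 2.73 CPM (0.331 to 9.87) and 3.02 CPM (0.981 to 7.05) there, against 114 CPM and 23.3 CPM in other mesenchymal cells. Frzb had 6.83 CPM (2.22 to 15.9) and 7.25 CPM (3.75 to 12.7) there, 0.106 (0.0345 to 0.249) and 0.182 (0.0935 to 0.321) times the level of the others. Dkk1 was met by 1 UMI in each library. Dkk3 had 229 CPM and 149 CPM there, against 326 CPM and 297 CPM in the others, ratios of 0.703 (0.60 to 0.819) and 0.501 (0.438 to 0.57). In all, 4 of 9 measured members were 2-fold higher and 3 lower in the Lmx1b library, with 4 higher and 4 lower in the Pdgfra library. Over all measured genes the shares were 15.3% higher and 8.84% lower in the Lmx1b library, with 11.9% and 7.31% in the Pdgfra library. The median log2 difference of the members was -0.51 and -0.99, beside 0.21 and 0.15 over all measured genes. Under the stricter cell filter 2 members were higher in each library, with 20 and 17 such cells left. The median mitochondrial share of these cells was 4.85% and 6.69%, and their median depth 21225 and 16845 UMIs, and the part of either in these values was not tested.

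In the Lmx1b library the nail-associated-like cells could be set apart by Xist, with 14 cells that carried it and 21 that did not. Sfrp2 was at 12632 CPM in the cells with Xist, against 12582 CPM in those without. Sfrp1 was at 264 CPM with Xist, against 223 CPM without, and Dkk3 at 222 CPM with Xist, against 236 CPM without. These 3 members were at like levels on both sides, whereas Dkk2 and Wif1 were not. Dkk2 had 382 CPM with Xist against 616 CPM without, and Wif1 1454 CPM with Xist against 494 CPM without. Of the 14 cells 10 were labelled, and 19 of the 35 cells carried a UMI of a Y-linked gene, with 1 cell that carried both. Among all 804 mesenchymal cells of this library 26 carried Xist, 692 a UMI of a Y-linked gene and 4 both. Whether the cells with and without Xist came from different animals is not given in the sources used here, and its part in these values was not tested.

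Among the subtypes, the Gal/Dmp1 cells of the bone lineage had the highest levels of Dkk1, Wif1 and Frzb. Wif1 was shared, being high in nail-associated-like and Mmp13/Aldh1a7 cells too. In the Gal/Dmp1 cells Dkk1 had 309.8 CPM (283 to 339) in the Lmx1b library, against 12.1 CPM in other mesenchymal cells, and 456 CPM (389 to 532) in the Pdgfra library, against 7.67 CPM in the others. It was thus 25.7-fold (22.1 to 29.9) and 59.5-fold (46.1 to 77) higher in these cells. The Bglap/Car3 cells came second, at 70.1 CPM (61.7 to 79.2) and 86 CPM (68.9 to 106). Together these bone-lineage subtypes held nearly all of the mesenchymal Dkk1 UMIs, with 63.8% and 61.7% in Gal/Dmp1 cells and 34% and 33% in Bglap/Car3 cells. In no other subtype did Dkk1 pass 6.23 CPM. In single Gal/Dmp1 cells its median was 203 and 344 CPM, and 8 of 47 and 0 of 14 cells lacked it.

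Wif1 reached its highest mesenchymal level in the Gal/Dmp1 cells in both libraries. It had 1231 CPM (1176 to 1288) there in the Lmx1b library, against 302 CPM in other mesenchymal cells, and 1380.2 CPM (1261 to 1508) in the Pdgfra library, against 236 CPM in the others. It was thus 4.07-fold (3.87 to 4.29) and 5.85-fold (5.31 to 6.44) higher in these cells. Every one of these cells had it, from 165 to 3858 CPM with a median of 1105 CPM (Lmx1b library), and from 115 to 3517 CPM with a median of 1159 CPM (Pdgfra library). Frzb had 133 CPM (115 to 153) and 176 CPM (136 to 226) in Gal/Dmp1 cells, 2.31-fold (1.99 to 2.68) and 5.51-fold (4.16 to 7.2) above other mesenchymal cells. It did not differ beyond the counting intervals from Bglap/Car3 cells, at 130.4 CPM (119 to 143) and 141 CPM (119 to 167). Frzb was not confined to the bone lineage, as A2m/Fmo2 cells had 98.2 CPM (84.7 to 113) and 148 CPM (94.9 to 220). The latter value rests on 7 cells. Notum had 17.6 CPM (11.6 to 25.6) in Gal/Dmp1 cells of the Lmx1b library, 1.247 (0.809 to 1.85) times the level of the others, and 0 UMIs in those of the Pdgfra library, where it was not measured in this comparison. Sfrp1, Sfrp2, Sfrp4 and Dkk2 were low in Gal/Dmp1 cells, Sfrp1 at 7.18 CPM (3.58 to 12.8) and 0 UMIs, Dkk2 at 1.96 CPM (0.404 to 5.72) and 2.8 CPM (0.0709 to 15.6) and Sfrp4 at 7.18 CPM (3.58 to 12.8) and 5.6 CPM (0.678 to 20.2). Dkk3 was at 0.409 (0.355 to 0.47) and 0.475 (0.35 to 0.631) times the level of the other mesenchymal cells. Of the measured members, 3 of 9 were 2-fold higher and 5 lower in the Lmx1b library, with 3 of 8 higher and 5 lower in the Pdgfra library. Over all measured genes 4.01% were higher and 27.9% lower in the Lmx1b library, with 6.46% and 34.1% in the Pdgfra library, so that lower calls were common in this subtype. The count of lower members in the Pdgfra library was 3 in place of 5 at a lower clustering resolution, and also without a depth minimum. The median log2 difference was -1.28 and -1.41 over the measured members, beside -0.54 and -0.63 over all measured genes.

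**Figure D3:**
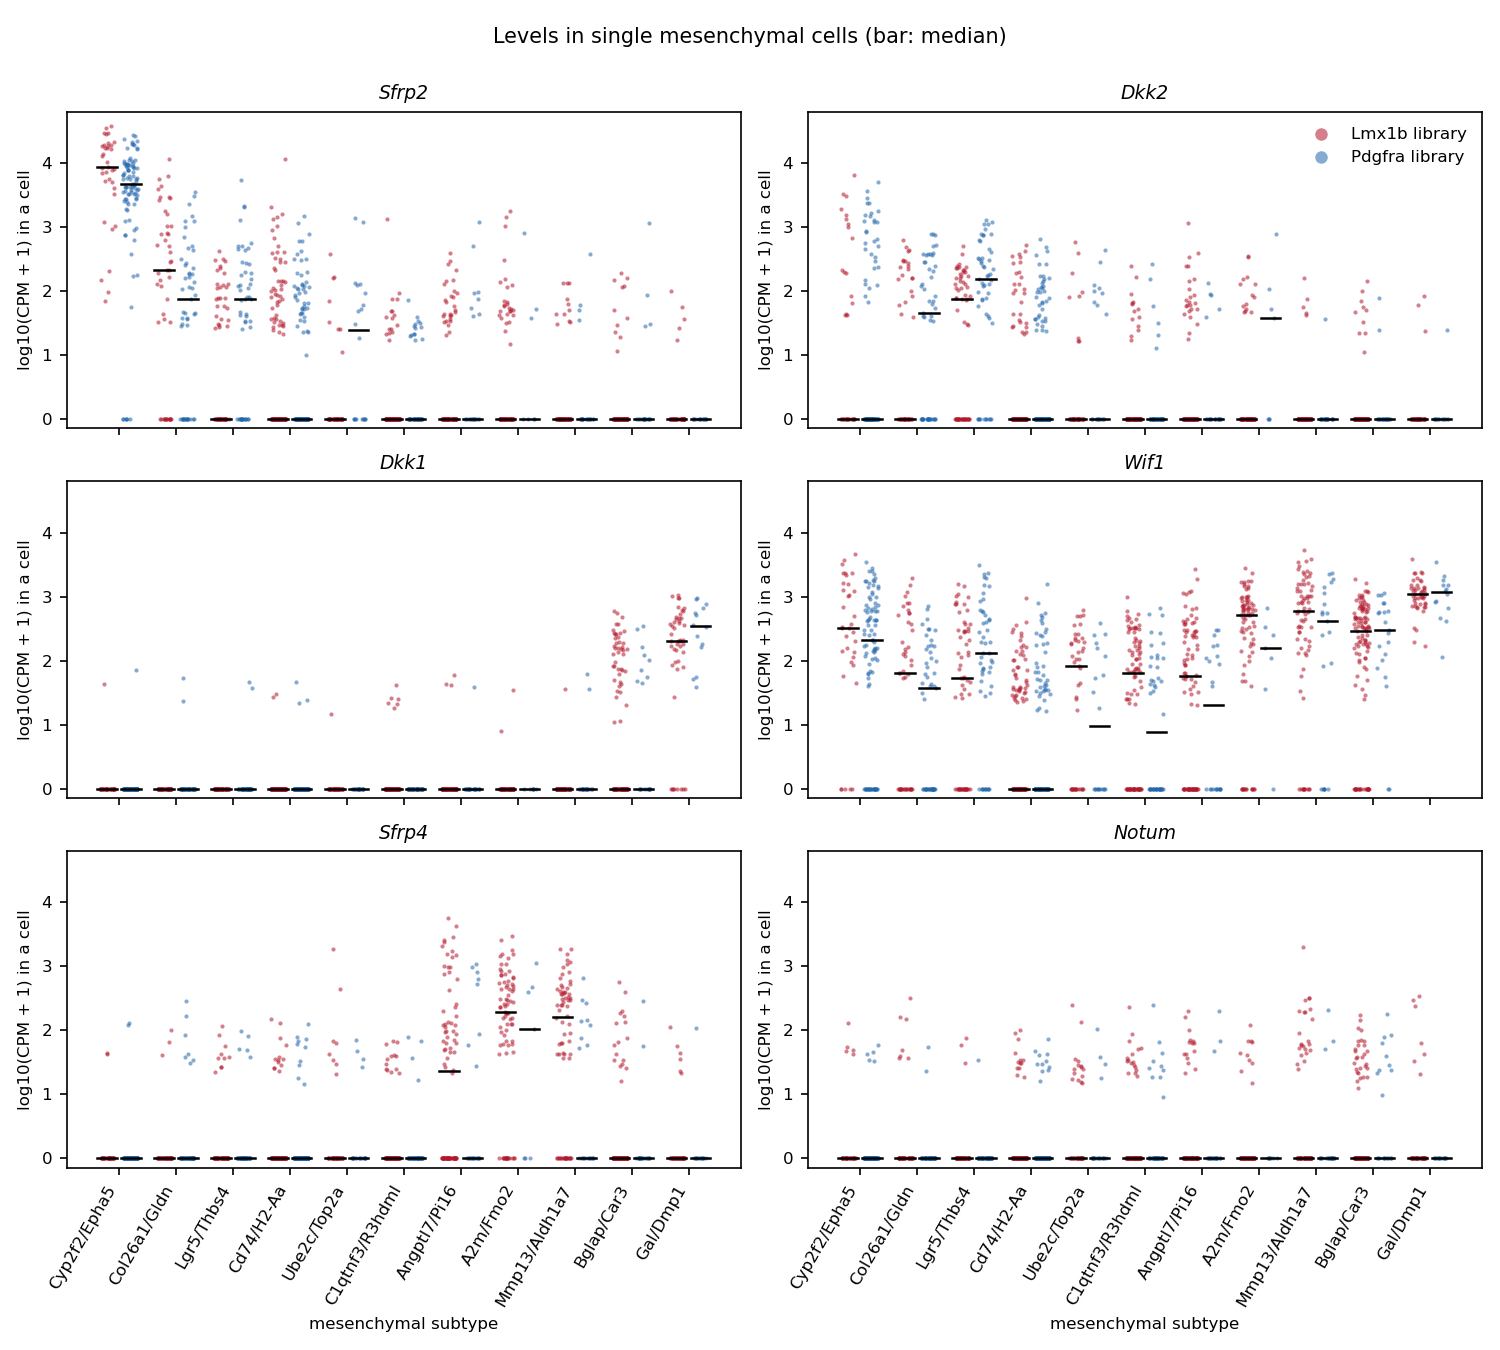
Levels of Sfrp2, Dkk2, Dkk1, Wif1, Sfrp4 and Notum in single mesenchymal cells, as log10(CPM + 1), by subtype, Lmx1b library in red on the left and Pdgfra library in blue on the right of each place. A point is a cell and a bar the median. Sfrp2 forms a raised cloud in Cyp2f2/Epha5 cells and Wif1 in Gal/Dmp1 cells, whereas Dkk2 and Notum are at 0 in many cells of the subtypes where their sums are highest.

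Sfrp4 marked yet other subtypes, as the plot of single cells shows. It was highest in Angptl7/Pi16, A2m/Fmo2 and Mmp13/Aldh1a7 cells, at 459.9 CPM (433 to 488), 439 CPM (409 to 469) and 303 CPM (276 to 331) in the Lmx1b library. In the Pdgfra library these subtypes had 179.7 CPM (147 to 218), 296 CPM (218 to 393) and 74.8 CPM (52.4 to 104), on 22, 7 and 21 cells. The intervals of Angptl7/Pi16 and A2m/Fmo2 cells overlapped in the Lmx1b library, so their order is not resolved. The 3 subtypes held 41.4%, 31.6% and 17.9% of the mesenchymal Sfrp4 UMIs in the Lmx1b library, with 37.4%, 17.1% and 12.8% in the Pdgfra library. Angptl7/Pi16 cells stood 6.37-fold (5.89 to 6.89) and 13.2-fold (10.3 to 16.9) above other mesenchymal cells. Detection was uneven, since 44 of 90 and 14 of 22 Angptl7/Pi16 cells lacked Sfrp4, while 17 of 80 A2m/Fmo2 cells of the Lmx1b library did. These 3 subtypes made up 90, 80 and 72 of 804 mesenchymal cells in the Lmx1b library, with 22, 7 and 21 of 453 in the Pdgfra library, where the mesenchymal level of Sfrp4 was lower.

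Notum had its highest level in the Mmp13/Aldh1a7 cells of both libraries. It had 62.6 CPM (50.8 to 76.3) in the Lmx1b library, against 11 CPM in other mesenchymal cells, and 31.2 CPM (17.4 to 51.4) in the Pdgfra library, against 6.9 CPM in the others. That is 5.72-fold (4.47 to 7.25) and 4.51-fold (2.43 to 7.85) higher. In the Pdgfra library this rested on 15 UMIs, and the interval of the next subtype, Bglap/Car3, at 22.7 CPM (14.4 to 34.1), overlapped. Only a minority of the cells had it, as 49 of 72 and 18 of 21 had none and the highest had 1995 and 210.1 CPM. Sfrp4 was 3.11-fold (2.81 to 3.43) and 3.98-fold (2.72 to 5.66) higher in these cells than in other mesenchymal cells, and Wif1 2.52-fold (2.37 to 2.67) and 2.93-fold (2.62 to 3.27). Sfrp2, Dkk1 and Dkk2 were 2-fold or more lower. With 3 of 9 measured members higher and 3 lower in each library, the members split evenly. Over all measured genes 3.33% were higher and 4.86% lower in the Lmx1b library, with 5.01% and 9.75% in the Pdgfra library. Notum overlaps the antisense genes Myadml2os and Notumos, which had at most 1.92 CPM in any subtype.

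The Cd74/H2-Aa cells, 120 and 108 in number, had low levels of most members. Of 9 measured, 0 were 2-fold higher and 6 lower in the Lmx1b library, with 0 higher and 7 lower in the Pdgfra library, beside 1.41% higher and 4.87% lower over all measured genes in the Lmx1b library, with 0.761% and 3.93% in the Pdgfra library. The median log2 difference was -1.54 and -1.76 over the measured members and 0.01 and -0.01 over all measured genes. Wif1 was at 38.3 CPM (32.2 to 45.2) and 74.2 CPM (65.5 to 83.8), against 421 CPM and 333 CPM in other mesenchymal cells. Those other cells include the nail-associated-like cells, with 12605 CPM of Sfrp2 in the Lmx1b library. Sfrp2 was called lower in Cd74/H2-Aa cells of that library, yet at 222 CPM they ranked 3 of the 11 subtypes. Sfrp1 and Dkk3 were called in neither library, and Dkk2 was called lower in the Pdgfra library but not in the Lmx1b library, at 0.689 (0.565 to 0.835) times the level of the others. Sfrp1 had 101 CPM (90.8 to 112) and 204 CPM (189 to 219) in these cells, against 87 CPM and 136 CPM in the others. Dkk3 was at 479 CPM (457 to 502) and 292 CPM (275 to 311) in these cells, against 295 CPM and 274 CPM in the others. In the Lmx1b library these cells also carried Cd74 and Lyz2, at 291 CPM and 114 CPM, whereas those of the Pdgfra library had 2.85 CPM and 25.7 CPM, and the part of these genes in the values was not tested. In C1qtnf3/R3hdml cells 0 and 1 of 9 measured members were higher and 6 lower in each library. Over all measured genes 1.59% and 2.62% were higher there and 7.67% and 10.3% lower. In Ube2c/Top2a cells 0 and 1 of 9 were higher and 5 lower in each library. Over all measured genes 7.2% and 7.67% were higher there and 5.56% and 6.22% lower.

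Dkk3 was the only member at more than 98 CPM in every subtype of both libraries, from 133 to 565 CPM (Lmx1b library) and from 98.7 to 419.9 CPM (Pdgfra library). It was highest in Lgr5/Thbs4 cells of the Lmx1b library, at 565 CPM (529 to 603), and in C1qtnf3/R3hdml cells of the Pdgfra library, at 419.9 CPM (392 to 449.7). Each of these subtypes was among the first 3 in the other library. All 62 and 51 Lgr5/Thbs4 cells had Dkk3, with medians of 559 and 309.6 CPM. The cycling Ube2c/Top2a cells led for none of the members. There Sfrp1 had 71.7 CPM (60.7 to 84.1) and 95.5 CPM (75.4 to 119) and Wif1 141 CPM (126 to 158) and 78.2 CPM (60.1 to 99.99). After thinning, 3 or more members were found in 60% and 56.5% of nail-associated-like cells and in 53.2% and 57.1% of Gal/Dmp1 cells.

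**Figure D4:**
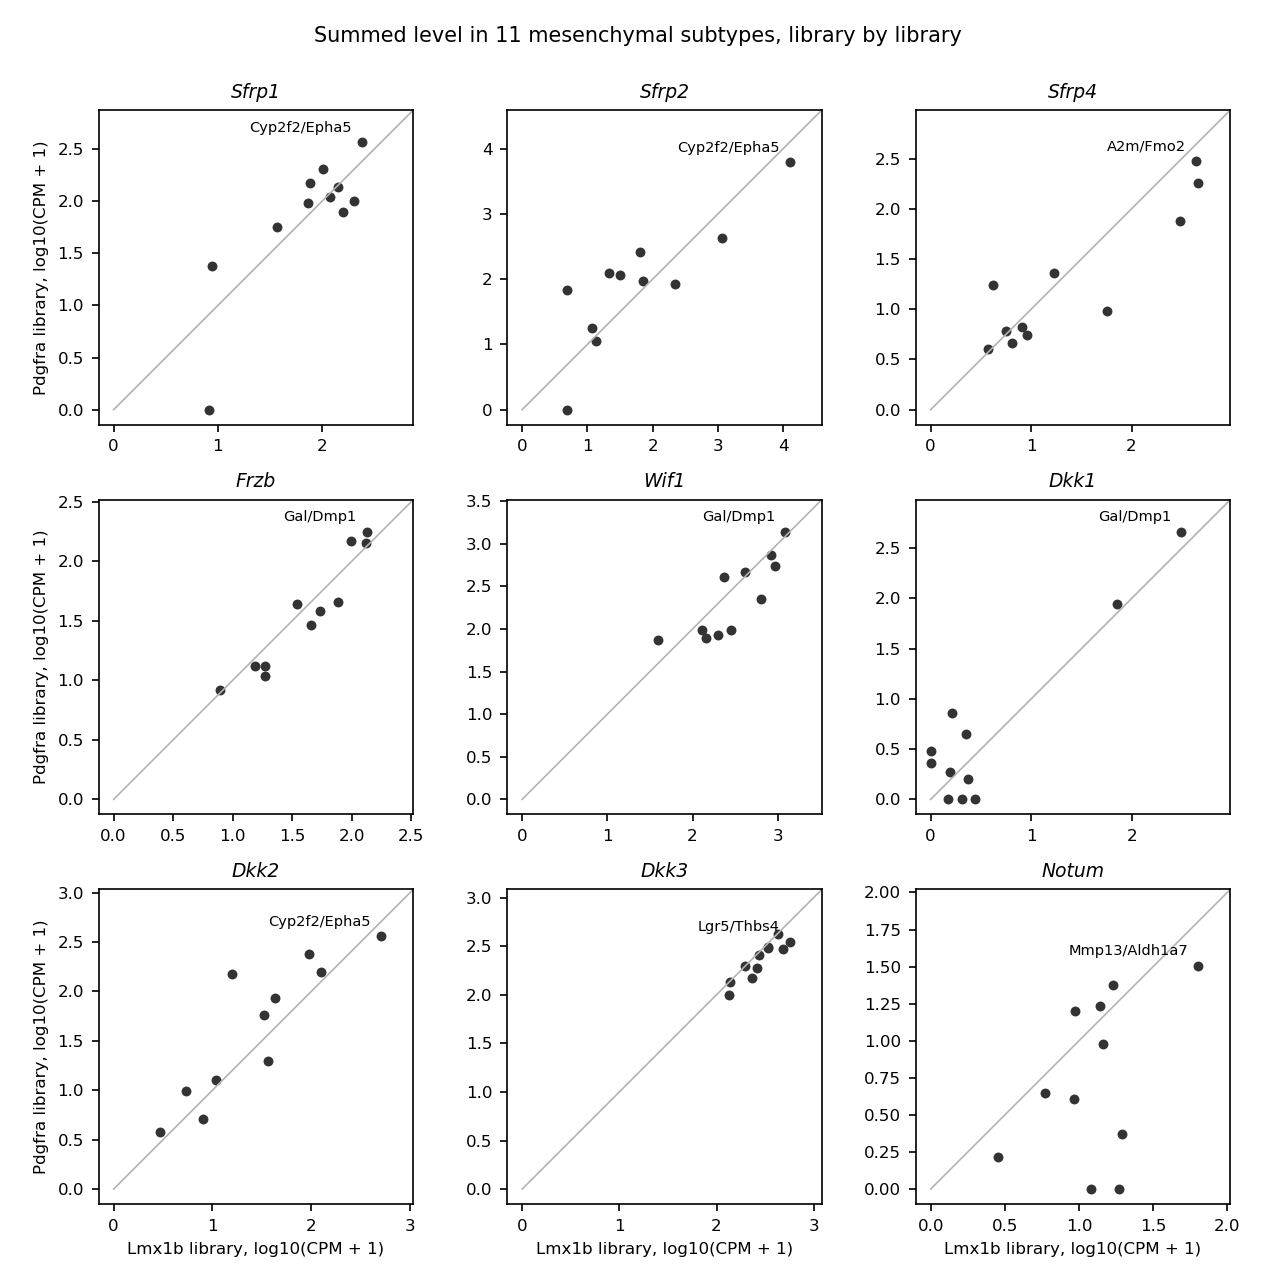
Summed level of 9 members in each of 11 mesenchymal subtypes, as log10(CPM + 1), in the Lmx1b library (x axis) and the Pdgfra library (y axis), with the line of equal levels and the name of the subtype whose 2 values have the largest sum. Points follow the line for Frzb and Dkk3 and scatter widely for Notum.

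The plot of one library against the other shows how far the subtype levels repeated. Over the 11 subtypes Pearson's r of log2(CPM + 1) between the libraries was 0.96 for Frzb, 0.92 for Dkk1, 0.91 for Dkk3, 0.90 for Sfrp4, 0.87 for Dkk2 and 0.83 for each of Sfrp2, Wif1 and Sfrp1. For Notum, the lowest of these genes in UMIs, it was 0.43. The order of the subtypes repeated less well for some genes. Spearman's rank correlation was 0.95 for Frzb, 0.92 for Dkk2, 0.89 for Dkk3 and 0.88 for Wif1. It was 0.79 for Sfrp4, 0.78 for Sfrp2, 0.66 for Sfrp1, 0.31 for Dkk1 and 0.28 for Notum. These are descriptions over 11 points that share the clustering and, within a library, the preparation. The A2m/Fmo2 point rests on 7 cells in the Pdgfra library. The r of Dkk1 rests on the 2 bone-lineage subtypes, since the other points were near 0. The subtype with the highest level was the same in both libraries for 7 of the 9 genes, the exceptions being Sfrp4 and Dkk3.

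Over 21 profiles, 1 for each subtype and library with the A2m/Fmo2 cells of the Pdgfra library left out, the members also varied with one another. Sfrp2 and Dkk2 were the most alike, with r = 0.89, followed by Sfrp1 and Sfrp2 at 0.72 and Frzb and Dkk1 at 0.71. Sfrp1 and Dkk1 were opposed, with r = -0.86, as were Frzb and Dkk2 at -0.85. Among all 8633 genes at 20 CPM or more in at least 1 profile, those most like each member were as follows. For Sfrp2 they were Gm26771 (r = 0.94), Cpeb2 (r = 0.93) and Steap2 (r = 0.93), the first of which overlaps Sfrp2. For Dkk2 they were Sgip1 (r = 0.93), Ccdc74a (r = 0.93) and Ppm1l (r = 0.93). For Sfrp1 they were Elf1 (r = 0.97), Clstn1 (r = 0.96) and Lamb1 (r = 0.95), and for Sfrp4 Abcc9 (r = 0.91), Olfml2a (r = 0.88) and Tnfrsf1b (r = 0.83). For Frzb they were Cd200 (r = 0.91), RP23-218K15.3 (r = 0.89) and Lpar3 (r = 0.89), and for Dkk1 RP23-457J22.1 (r = 0.94), Msi1 (r = 0.94) and Zfp385b (r = 0.92). For Dkk3, they were Col16a1 (r = 0.94), Col12a1 (r = 0.93) and Tnn (r = 0.88). For Wif1 they were Etv5 (r = 0.83), Ndufa6 (r = 0.82) and Insig2 (r = 0.82), and for Notum, less alike, Ppp1cb (r = 0.69), Bud31 (r = 0.69) and Nrn1 (r = 0.68). The profiles share 2 libraries and their depth, and no test was made.

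The label gave a further cut through the same cells. A mesenchymal cell was called labelled at 1600 CPM of tdTomato or more, which held for 56 of 804 cells of the Lmx1b library and 418 of 453 of the Pdgfra library. Of 9 measured members 3 were 2-fold higher and 3 lower in labelled than in unlabelled cells in each library. Over all measured genes 6.33% were higher and 4.4% lower in the Lmx1b library, with 12.8% and 3.42% in the Pdgfra library. Sfrp2 and Dkk2 were higher in labelled cells of both libraries and Dkk1 lower. Sfrp1 had 138 CPM in labelled against 86.1 CPM in unlabelled cells of the Lmx1b library, and 164 CPM in labelled against 40.0 CPM in unlabelled cells of the Pdgfra library, ratios of 1.6 (1.38 to 1.86) and 4.09 (3.05 to 5.63). Notum had 50.1 CPM in labelled against 12.1 CPM in unlabelled cells of the Lmx1b library, and 7.66 CPM in labelled against 8.89 CPM in unlabelled cells of the Pdgfra library, ratios of 4.13 (3.13 to 5.39) and 0.862 (0.449 to 1.86). At this threshold Sfrp1 was past 2-fold in the Pdgfra library and not in the Lmx1b library, and Notum the reverse. Wif1 had 471 CPM in labelled against 355 CPM in unlabelled cells of the Lmx1b library, and 229 CPM in labelled against 675 CPM in unlabelled cells of the Pdgfra library, ratios of 1.33 (1.22 to 1.43) and 0.339 (0.313 to 0.368). Frzb was lower in labelled cells of both, at 19.3 CPM and 29.4 CPM in labelled cells, against 65.1 CPM and 107 CPM in unlabelled cells. Sfrp4 was 2-fold lower in labelled cells of the Lmx1b library at this threshold and was not called in the Pdgfra library, with ratios of 0.0793 (0.0422 to 0.136) and 1.124 (0.72 to 1.85). Dkk3 differed little, with ratios of 0.89 (0.803 to 0.984) and 1.47 (1.28 to 1.69).

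The subtypes were unevenly spread over these groups. In the Lmx1b library 23 of 56 labelled cells were nail-associated-like, and in the Pdgfra library 12 of 35 unlabelled cells were Gal/Dmp1 cells and 7 were Bglap/Car3 cells. Within the nail-associated-like cells of the Lmx1b library, 23 labelled against 12 unlabelled, the ratio was 1.26 (1.21 to 1.32) for Sfrp2, 1.37 (1.09 to 1.73) for Dkk2, 0.861 (0.737 to 1.01) for Wif1 and 0.891 (0.653 to 1.22) for Sfrp1. None of these differed by 2-fold, but of 7 measured members 0 were 2-fold higher and 1 lower. Over all measured genes 10.2% were higher and 7.49% lower in this split. Within the Col26a1/Gldn cells of that library, 14 against 33, the ratio of Sfrp2 was 0.983 (0.874 to 1.1). The ratio of Notum there was 4.57 (1.82 to 12.4), at 41.3 CPM in labelled against 9.05 CPM in unlabelled cells, on 15 and 8 UMIs. Of 7 measured members there 2 were higher and 0 lower, beside 6.17% and 8.17% of all measured genes. Within the Cd74/H2-Aa cells of the Lmx1b library 12 were labelled and 108 unlabelled. Of 7 measured members 0 were higher and 2 lower, beside 4.98% and 7.12% of all measured genes. All 92 nail-associated-like cells of the Pdgfra library were labelled. The Pdgfra values also moved with the threshold: at 800 CPM of tdTomato, with 13 cells unlabelled, the log2 ratio of Frzb was 0.81, and at 3200 CPM, with 251 unlabelled, that of Wif1 was 0.18, both opposite in sign to those at 1600 CPM. Sfrp4 there was at a log2 ratio of -1.72 with 800 CPM, -0.03 with 3200 CPM and 2.83 with the stricter cell filter. Notum there was at 3.16 with 800 CPM and -1.26 with 3200 CPM. In the Lmx1b library the log2 ratio of Wif1 was -0.12 without the cells that carried Xist and -0.31 with the stricter cell filter, and that of Sfrp1 was -0.06 with that filter.

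**Figure D5:**
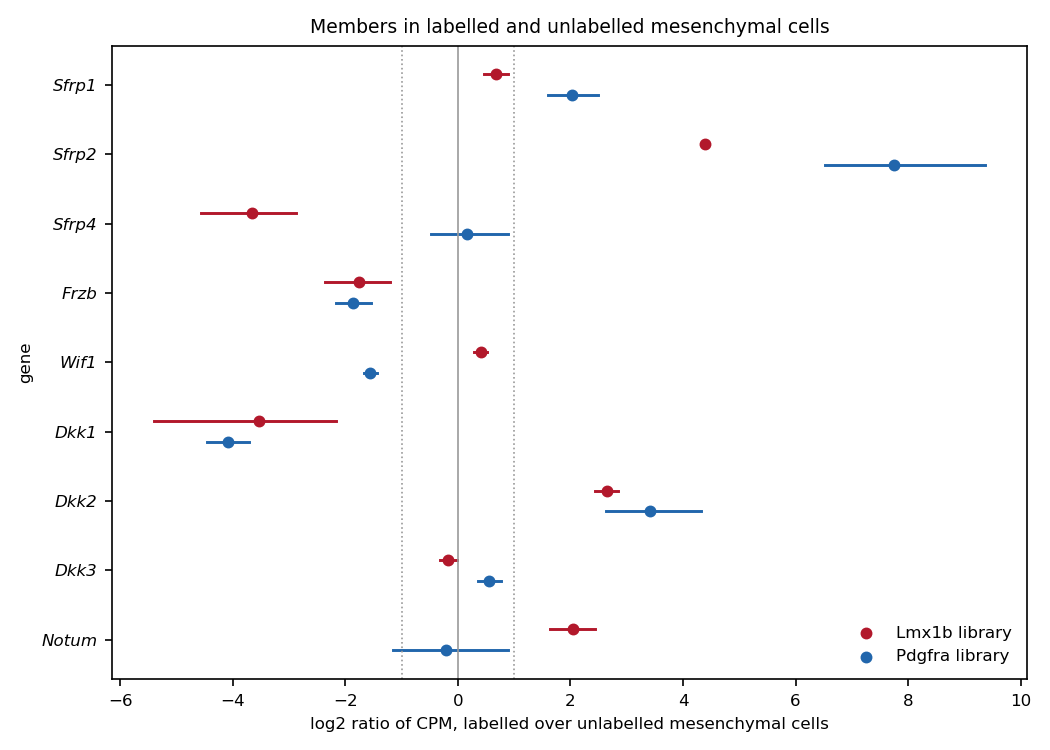
Log2 ratio of summed CPM in labelled over unlabelled mesenchymal cells for 9 members, Lmx1b library in red above and Pdgfra library in blue below, with 95% intervals for counting error. Dotted lines mark 2-fold. Sfrp2 and Dkk2 lie to the right and Frzb and Dkk1 to the left of 2-fold in both libraries, while Sfrp1, Sfrp4, Wif1 and Notum are past 2-fold in only 1 library.

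In the plot of labelled over unlabelled cells the wide intervals of Sfrp2 and Dkk2 in the Pdgfra library come with the 35 unlabelled cells. Beside the members, a list of 75 other genes of Wnt signalling was counted in the same comparisons. In mesenchymal against other classified cells 8.08% of all measured genes were higher and 14.8% lower in the Lmx1b library, with 8.16% and 15.3% in the Pdgfra library. Of the list, 20 of 45 measured genes were 2-fold higher and 4 lower in the Lmx1b library, with 20 of 51 higher and 8 lower in the Pdgfra library. The highest were Lgr5, Wnt16 and Rspo3 in the Lmx1b library, with Rspo4, Lgr5 and Rspo3 in the Pdgfra library, and the receptors Fzd4 and Fzd6 were the lowest in both, with Ccnd1 next in the Lmx1b library, with Wnt10a next in the Pdgfra library. In nail-associated-like against other mesenchymal cells 15.3% of all measured genes were higher and 8.84% lower in the Lmx1b library, with 11.9% and 7.31% in the Pdgfra library. Of the list, 16 of 48 were higher and 8 lower in the Lmx1b library, with 14 of 48 higher and 8 lower in the Pdgfra library. Unlike the members, genes of this list were not left out of the clustering that made the subtypes. The highest in nail-associated-like cells were the R-spondins, which amplify Wnt signals. Rspo4 had 193 CPM in nail-associated-like cells of the Lmx1b library, against 1.08 CPM in the others, and 226 CPM in those of the Pdgfra library, against 5.31 CPM in the others. It is one of the markers that named the subtype, as is Rspo1, which had 165 CPM and 196 CPM in these cells, against 4.59 CPM and 7.75 CPM in the others. Next came the receptor Fzd10 in the Lmx1b library, at 17.8 CPM in these cells against 0.563 CPM in the others, and the antagonist Sostdc1 in the Pdgfra library, at 21.1 CPM in these cells against 1.52 CPM in the others. The ligand gene Wnt16 was nearly absent, at 0 UMIs and 0.604 CPM in nail-associated-like cells against 78.4 CPM and 102 CPM in others. Lgr5, a receptor of R-spondins, had 0 and 1 UMI in these cells, against 23 CPM and 42.6 CPM in others. Of the genes for feedback and targets of the pathway, 3 of 5 measured were higher and 1 lower in each library.

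In Gal/Dmp1 cells, where Dkk1 and Wif1 were highest, 5 of 44 measured Wnt genes were 2-fold higher and 20 lower in the Lmx1b library, with 7 of 46 higher and 22 lower in the Pdgfra library. Lower calls were common there among all genes too. Over all measured genes 4.01% were higher and 27.9% lower in the Lmx1b library, with 6.46% and 34.1% in the Pdgfra library. The 3 highest Wnt genes were the same in both libraries, Lgr6, Sost and Fzd9. Sost, the bone antagonist sclerostin, had 41.7 CPM and 28 CPM in Gal/Dmp1 cells, against 5.52 CPM and 0.38 CPM in the others. Those others include the Bglap/Car3 cells, which had 34.1 CPM and 2.97 CPM of Sost. Lgr6, an R-spondin receptor, had 77.6 CPM and 98 CPM in Gal/Dmp1 cells, against 7.98 CPM and 7.22 CPM in the others. Fzd9 had 103 CPM and 95.2 CPM in Gal/Dmp1 cells, against 17.8 CPM and 10.3 CPM in the others. Rspo3 was nearly absent, with 1 and 0 UMIs, against 53.7 CPM and 72.4 CPM in other mesenchymal cells. Of the genes for feedback and targets, 0 of 5 measured were higher in either library, and 4 and 3 were lower.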

How the data were processed

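The deposited files held raw counts of UMIs from 10x Genomics 3' libraries, unnormalized. The authors used Cell Ranger 4.0.0 (per the file headers) on mm10 with tdTomato added, per the labels' protocols, and which barcodes they kept as cells is not given in the sources used here.

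Kept here were barcodes of 500 genes or more and 10% mitochondrial UMIs or less. Scrublet's own threshold marked 0 barcodes and had not worked, so the top 0.8% by doublet score per 1000 barcodes was removed, 287 and 203 in the Lmx1b and Pdgfra libraries. Cells of at least 5000 UMIs were classified by the share of the markers of a list that were present, over 17 marker lists. A marker was present at 2 UMIs or more, and a class needed at least 3 of them. A mesenchymal cell needed 1.5 times the share of every other class, and another class 1.5 times that of the others and 1.1 times that of mesenchyme, a gate set after the data were seen. Of 3115 gated cells, 97.2% lay in one of 29 clusters led by their own class, and 73 and 43 mesenchymal cells lay near the gate. Mesenchymal cells were clustered with scanpy 1.11.5 (2000 variable genes, 20 components, 15 neighbours, Leiden resolution 0.6). Sums were given as CPM, log2 differences with a pseudocount of 1 CPM, and floors as 3 UMIs over a group. The steps were tested on simulated data. Named genes were the 10 members, the 3 genes most like each and the 3 highest and lowest of the Wnt list. The members and all lists were chosen with earlier results of these data known. Numbers were computed with Python 3.11.15, numpy 2.4.6, scipy 1.17.1, pandas 2.3.3, igraph 0.11.9 and matplotlib 3.10.9. Alternatives changed the cell filter, doublets, classes, scaling, low-value filter, clustering, label threshold and thinning.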

Additional observations from a re-analysis of the deposited data

Results flagged for a closer look

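For 8 member values the libraries lay on opposite sides of no difference, with counting intervals that exclude it in each. The difference between the libraries was not tested in any of these cases, since each line has 1 library. Values are log2 differences with a pseudocount of 1 CPM, and the last value is the Lmx1b library minus the Pdgfra library. Wif1 in labelled against unlabelled mesenchymal cells had 0.41 (Lmx1b library) and -1.55 (Pdgfra library), a difference of 1.96, but the Lmx1b value was -0.12 without the cells that carried Xist and -0.31 under the stricter cell filter. Dkk3 in the same comparison was -0.17 and 0.56, a difference of -0.72. Dkk2 in endothelial against mesenchymal cells was 0.96 and -0.32, a difference of 1.28. In subtypes against other mesenchymal cells, Sfrp2 in Col26a1/Gldn cells was 1.30 and -1.13, a difference of 2.42. By summed level this subtype ranked 2 of 11 for Sfrp2 in both libraries, at 1141 CPM (Lmx1b library) and 427 CPM (Pdgfra library). Sfrp1 in Angptl7/Pi16 cells was 0.95 and -1.02, a difference of 1.96, and in Mmp13/Aldh1a7 cells 0.42 and -0.52, a difference of 0.94. Wif1 in Lgr5/Thbs4 cells was -0.69 and 0.73, a difference of -1.42. Notum in C1qtnf3/R3hdml cells was -0.80 and 1.06, a difference of -1.86. Each subtype is set against the rest of its own library's mesenchyme, whose make-up differed between the libraries.

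Sfrp5 had few UMIs in classified cells, 10 of them in 5 of 82 cartilage cells of the Lmx1b library, at 3.03 CPM (1.45 to 5.57), and 0 in the 34 cartilage cells of the Pdgfra library. Another 7 lay in 4 of the 29 Schwann cells of the Lmx1b library, at 20.0 CPM (8.04 to 41.2), its highest level in a class. Sfrp5 also appeared in barcodes of the Pdgfra library with under 5000 UMIs, which no comparison used, at 5.97 CPM. Of these UMIs, 11 came from 6 of 54 such barcodes that held 3 or more of the cartilage genes Matn1, Cytl1, Col2a1, Acan and Col9a1, a set picked after the values were seen. Those 54 barcodes had 391 CPM of H19 and 509 CPM of Xist. The 22 such barcodes of the Lmx1b library had 0 UMIs of Sfrp5, with 20.2 CPM of H19 and 0 of Xist.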

How the results depend on the processing

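Of 198 recomputed counts and shares, 192 stayed within 1.5 times their value. The other 6 were as follows. Under a stricter cell filter (1000 genes or more, 5% mitochondrial UMIs or less), members higher in mesenchymal cells of the Lmx1b library numbered 4 in place of 7, and members higher in nail-associated-like cells 2 in place of 4 in each library. With classes taken from clusters of all cells, members higher in mesenchymal cells of the Lmx1b library again numbered 4. Members lower in Gal/Dmp1 cells of the Pdgfra library numbered 3 in place of 5 at the lower clustering resolution, and 3 with no depth minimum in the gate, an alternative added after seeing the data. The cause of these moves was not tested.

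Of 704 recomputed log2 ratios of called members, 674 stayed past 2-fold, 30 did not and 5 of these changed sign, all in the Pdgfra library. They were Notum in mesenchymal cells at -0.37 and Wif1 in nail-associated-like cells at -0.93 under the stricter cell filter, Sfrp4 in Gal/Dmp1 cells at 0.070 without the depth minimum, and, in labelled cells, Frzb at 0.81 with a label threshold of 800 CPM and Wif1 at 0.18 with one of 3200 CPM. Of 164 recomputed log2 ratios of measured members not called at 2-fold, 19 changed sign and 9 passed 2-fold, among them Notum in Gal/Dmp1 cells of the Lmx1b library, at -1.38 with classes from clusters. No paired analysis was possible because each line has 1 library. With 1 library per line, differences between lines and between libraries cannot be told apart, and some values rest on few cells, with 7 A2m/Fmo2 and 14 Gal/Dmp1 cells in the Pdgfra library and 35 nail-associated-like cells in the Lmx1b library. Notum and Sfrp5 are limited by low counts.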

Other observations

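Vascular Dkk2 was not even among endothelial cells. In a split made after the data were seen, cells with 3 or more of the arterial genes Gja4, Gja5, Sema3g, Sox17 and Efnb2, which mark the vessels that bring blood to a tissue, numbered 174 of 562 endothelial cells in the Lmx1b library and 86 of 239 in the Pdgfra library. Dkk2 had 127 CPM in these cells, against 61.9 CPM in other endothelial cells of the Lmx1b library, a ratio of 2.05 (1.78 to 2.35). In the Pdgfra library it had 119 CPM in these cells, against 71.5 CPM in the others, a ratio of 1.66 (1.35 to 2.04). The median depth of these cells was 16182 UMIs against 12274 UMIs in the others (Lmx1b library) and 13466.5 UMIs against 12399 UMIs (Pdgfra library), and its part in the values was not tested.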
